A study of Homo sapiens with 6 samples.

Results

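The genes described are 10 enzymes of fatty acid synthesis and desaturation: FASN, ACACA, ACLY, SCD, ACSS2, ME1, ELOVL6, FADS1, FADS2 and ACSL1. Their rows were found by Ensembl identifier, with no threshold on a measured value. All 10 were among the 17811 genes listed and all 10 passed the filter on low values. Poly(A) RNA was sequenced from 22RV1 cells, a human prostate cancer line, kept in RPMI-1640 with 10% FBS. Each of 3 groups stably carried short hairpin RNA and gave 2 libraries, numbered 1 and 2. The groups were shLuc, whose hairpin targets luciferase and serves as the control, shIMPA1 and shIMPDH2. The inositol monophosphatase encoded by IMPA1 frees inositol from its phosphate, and the IMPDH2 enzyme commits IMP to guanine nucleotide synthesis. The labels number the 2 libraries of each group and leave unsaid whether these came from separate cultures or carried separate hairpins. The p-values therefore reflect the spread between libraries, which could be purely technical, and what a hairpin or line does apart from lowering its target cannot be told apart from the knockdown.

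Cells build fatty acids from acetyl-CoA in the cytosol. ACLY makes this acetyl-CoA from citrate and ACSS2 makes it from acetate, while ME1 is one source of the NADPH that the synthesis consumes. ACACA (acetyl-CoA carboxylase 1) makes malonyl-CoA, the committed step, and FASN (fatty acid synthase) joins the units into palmitate. ELOVL6 lengthens palmitate to stearate, SCD places the first double bond in saturated chains, and FADS2 and FADS1 (the delta-6 and delta-5 desaturases) act in turn on polyunsaturated chains. ACSL1 attaches CoA to long-chain fatty acids, which commits them to lipid assembly or to oxidation. Many of these genes are textbook targets of the transcription factor SREBP-1, encoded by SREBF1.

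Libraries held 20828900 to 27773294 reads in the listed genes. The hairpin targets were checked first. IMPA1 was at 1621 and 1331 normalized reads in shLuc libraries 1 and 2, at 957 and 1101 in the shIMPA1 libraries, and at 1795 and 1842 in the shIMPDH2 libraries. Both shIMPA1 values lay below all others, a log2 fold change of -0.52 against shLuc (SE 0.13, limma adjusted p = 0.0145). IMPDH2 was at 4269.9 and 5032 in shLuc, at 4435 and 5055 with shIMPA1, and at 2932 and 3166 with shIMPDH2. Both shIMPDH2 values lay below all others, a log2 fold change of -0.61 (SE 0.13, limma adjusted p = 0.00999). The luminal epithelial markers FOXA1, KRT8, KRT18 and EPCAM had values in all 6 libraries. KRT8 was at 71625 and 63788 normalized reads in shLuc and 40649.6 to 58623 in the 4 knockdown libraries. FOXA1 ranged from 6081 to 7644 over the 6 libraries, KRT18 from 6452 to 8524 and EPCAM from 2748 to 3759.6. Of 7 adipocyte markers only LPL was among the genes listed, with 276 to 628 normalized reads. Of 10 stromal, endothelial and blood markers, only VIM, COL1A1, COL3A1 and ACTA2 were among the genes listed. Their sums were 1046 and 1211 in shLuc and 325 to 420.0 in the 4 knockdown libraries. VIM alone went from 658 and 753 in shLuc to 40.4 and 43.1 in shIMPA1 and 61.2 and 70.9 in shIMPDH2. COL1A1 did not pass in shIMPA1 (log2 fold change -0.19), and COL3A1 (-1.40) and ACTA2 (-0.13) did not pass in shIMPDH2. None of these 5 genes was at 0 in any library, and the part of these markers in the results for the enzymes was not tested.

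Among the 10 enzymes, FASN was the most abundant and ME1 the least. Levels were compared between genes as RPKM (reads per kilobase of exon, scaled to the library's total reads in the listed genes), with exon lengths merged over all GENCODE 29 transcripts. On this scale the shLuc mean was 290 ± 28.0 (SD, n = 2) for FASN, 109.8 ± 13.6 for SCD and 70.4 ± 5.46 for ACLY. The middle of the order held FADS1 at 28.99 ± 1.13, ELOVL6 at 15.0 ± 1.10, ACSL1 at 10.9 ± 0.974, ACSS2 at 9.61 ± 0.685 and ACACA at 8.61 ± 0.800. FADS2 at 3.68 ± 0.370 and ME1 at 0.979 ± 0.116 were lowest. The order depends on the merged exon lengths, such as 11026 bases for FADS2 and 5385 for ACSS2. In the shLuc libraries FADS2 had 1033 and 1207 reads and ACSS2 1347 and 1510. Neighbours in this order did not overlap between the 2 shLuc libraries, with the exception of ACSS2 and ACACA. In shIMPA1, SCD reached 294 ± 62.4 against 424 ± 65.1 for FASN, and ACSL1 at 26.4 ± 0.424 stood above FADS1 at 14.7 ± 6.75. In shIMPDH2, ACSL1 at 23.1 ± 0.737 also stood above FADS1 at 16.5 ± 0.797. In reads not divided by length, FADS1 was the higher in shIMPDH2, at 3626 and 3648 against 3097 and 3190 for ACSL1. The 10 genes together took 0.407% and 0.464% of all reads in the shLuc libraries, 0.713% and 0.562% in those of shIMPA1, and 0.628% and 0.545% in those of shIMPDH2. FASN alone made up 62.2% and 62.5% of these in the shLuc libraries, 61.7% and 63.0% in those of shIMPA1, and 73.1% and 71.6% in those of shIMPDH2.

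**Figure D1:**
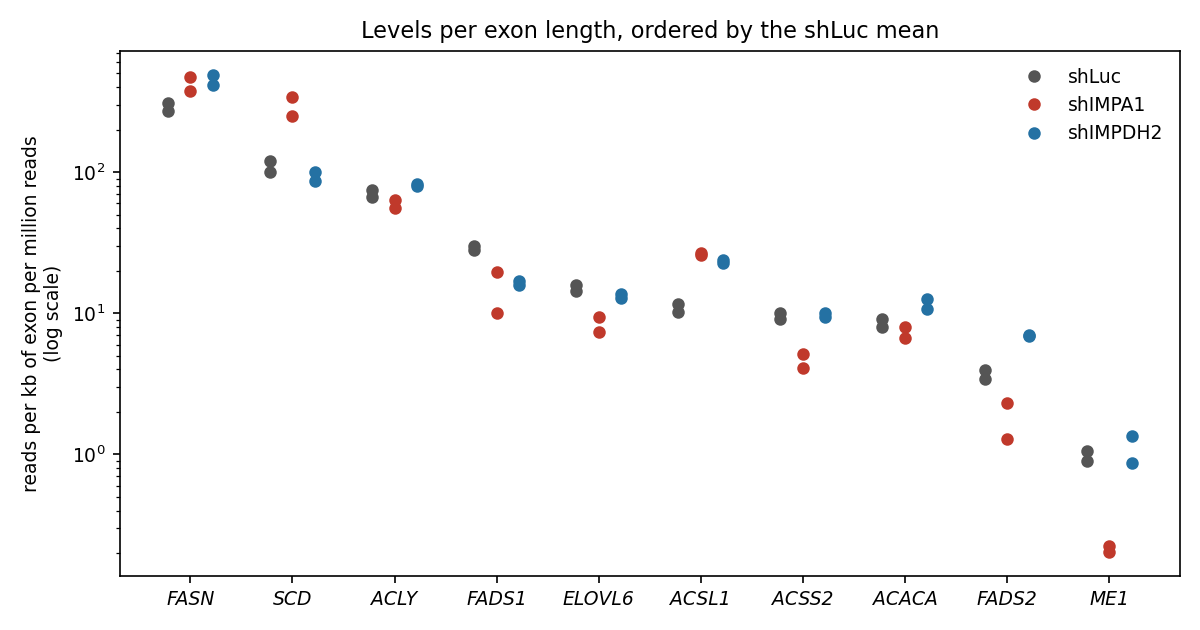
Levels of the 10 genes per exon length (vertical axis, RPKM on a log scale), 1 point per library, ordered from left to right by the shLuc mean. The values run from 290 ± 28.0 for FASN to 0.979 ± 0.116 for ME1 in shLuc, and the ME1 points of shIMPA1 lie lowest of all.

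By position, all 10 are protein-coding genes in GENCODE 29 on GRCh38. FASN (ENSG00000169710), ACACA (ENSG00000278540) and ACLY (ENSG00000131473) lie on the minus strand of chromosome 17 at 82078333-82098332, 37084988-37406818 and 41866908-41930542. SCD (ENSG00000099194) lies on the plus strand of chromosome 10 at 100347124-100364834, and ACSS2 (ENSG00000131069) on the plus strand of chromosome 20 at 34872146-34927962. ME1 (ENSG00000065833) lies on the minus strand of chromosome 6 at 83210389-83431071. ELOVL6 (ENSG00000170522) and ACSL1 (ENSG00000151726) lie on the minus strand of chromosome 4 at 110045846-110199199 and 184755595-184826818. FADS1 (ENSG00000149485, minus strand, 61799625-61829318) and FADS2 (ENSG00000134824, plus strand, 61792980-61867354) overlap on chromosome 11.

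Promoter sequence is shown for the genes with the largest rise and the largest fall in each knockdown, SCD and ME1 in shIMPA1 and ACSL1 and FADS1 in shIMPDH2. RefSeq start sites on GRCh38.p14 gave 300-base windows (250 bases before to 50 after the start) for 9 of the 10 genes, FASN being the one without, and 18 windows in all. Each was searched on both strands for 5 motifs: the sterol response core TCACNCCAC, the CCAAT box CCAAT, the E-box CACGTG, the GC box GGGCGG and the antioxidant response core TGACNNNGC. Over all 35116 windows in the reference table, these were present in 1.13%, 34.6%, 7.26%, 45.0% and 13.3%. Below are the 250 bases before the start, 5′ to 3′ on the strand of the gene, with motif matches in capitals. For a gene with several windows, the one nearest the 5′ end of its GENCODE 29 model is given.
SCD (chr10:100346983-100347232, plus strand): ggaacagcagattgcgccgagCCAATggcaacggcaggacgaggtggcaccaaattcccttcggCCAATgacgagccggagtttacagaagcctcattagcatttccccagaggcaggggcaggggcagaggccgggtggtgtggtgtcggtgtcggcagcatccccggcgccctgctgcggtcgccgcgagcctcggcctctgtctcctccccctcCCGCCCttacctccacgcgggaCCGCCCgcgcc
ME1 (chr6:83431052-83431301, minus strand): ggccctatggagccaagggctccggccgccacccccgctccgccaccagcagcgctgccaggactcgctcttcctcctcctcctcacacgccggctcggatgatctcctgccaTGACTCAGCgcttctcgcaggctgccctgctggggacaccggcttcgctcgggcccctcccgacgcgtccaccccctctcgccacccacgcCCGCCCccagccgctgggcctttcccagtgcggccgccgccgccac
ACSL1 (chr4:184825969-184826218, minus strand): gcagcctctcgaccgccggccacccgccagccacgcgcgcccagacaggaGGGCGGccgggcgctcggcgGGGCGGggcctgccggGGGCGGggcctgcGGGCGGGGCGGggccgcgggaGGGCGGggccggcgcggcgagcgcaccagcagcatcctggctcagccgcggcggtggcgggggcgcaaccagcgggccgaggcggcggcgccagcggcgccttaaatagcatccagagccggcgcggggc
FADS1 (chr11:61817004-61817253, minus strand): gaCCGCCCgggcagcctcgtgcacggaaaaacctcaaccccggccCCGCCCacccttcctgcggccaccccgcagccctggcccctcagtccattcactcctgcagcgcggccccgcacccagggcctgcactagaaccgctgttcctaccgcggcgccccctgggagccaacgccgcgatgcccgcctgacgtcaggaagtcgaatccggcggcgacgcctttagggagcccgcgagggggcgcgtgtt

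The SCD window held 2 CCAAT boxes, 229 and 186 bases before the start, and 2 GC boxes on the opposite strand. The ME1 window held 1 GC box and 2 matches to the antioxidant response core, of which TGACTCAGC, 137 bases before the start, is shown. The ACSL1 window held 6 GC boxes, a pair of which overlap, and the FADS1 window 2, and neither held another of the 5 motifs. The FADS1 start used by RefSeq lies 12315 bases inside the GENCODE 29 model. TCACNCCAC was matched in 1 of the 18 windows, another start of ACSL1. A match describes the letters and is not evidence of binding.

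In shIMPA1 against shLuc, the 10 genes did not move together. SCD and ACSL1 rose, ME1, ACSS2, FADS1, FADS2 and ELOVL6 fell, and FASN, ACACA and ACLY did not pass the test. That is 2 genes higher and 5 lower, where 14% of the 17742 genes tested were called higher, 16.2% lower and 30.2% in all. The test was limma on log2(normalized reads + 1) over all genes, and called means a Benjamini-Hochberg adjusted p under 0.05. The median log2 fold change of the 10 was -0.60, and that of all genes tested 0.02. The libraries of the groups did not overlap for any of the 10, as for 66.4% of the genes tested.

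At the acetyl-CoA step, ACSS2 and ACLY differed in their response. ACSS2 was at 1212 and 1321 normalized reads in shLuc and at 649 and 525 with shIMPA1. Both shIMPA1 libraries lay far below both shLuc libraries, a 2.17-fold lower level (log2 fold change -1.11, SE 0.13, limma adjusted p = 0.000193). ACLY was at 8569 and 9421 in shLuc and at 7721 and 6954 in shIMPA1. The ACLY values were lower in shIMPA1 without overlap, but the log2 fold change of -0.29 (95% confidence interval -0.57 to -0.02) did not pass (limma adjusted p = 0.101). A total of 156 exon bases of ACLY are shared with an antisense gene, AC125257.2, and reads there cannot be told apart unless strand was kept.

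ME1, the cytosolic malic enzyme, had the largest change of the 10. It was at 88.2 and 73.5 normalized reads in shLuc and at 18.0 and 16.4 in shIMPA1. Both shIMPA1 libraries were low, a 4.49-fold lower level (log2 fold change -2.17, SE 0.27, limma adjusted p = 0.000225). These values rest on few reads, 98 and 84 in shLuc against 20 and 19 in shIMPA1.

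For the committed step and the synthase, no call was made. ACACA was at 2581 and 2901 in shLuc and at 2463 and 2052 in shIMPA1, lower without overlap. The log2 fold change of -0.28 (95% confidence interval -0.58 to 0.01) did not pass (limma adjusted p = 0.131). FASN was at 62449 and 70535 in shLuc and at 103586 and 84297 in shIMPA1. Both shIMPA1 libraries lay above both shLuc libraries, and the log2 fold change was 0.49 (95% confidence interval 0.07 to 0.92, limma adjusted p = 0.0749). On the recovered whole reads the same difference passed in edgeR (adjusted p = 0.0418) and in DESeq2 (adjusted p = 0.00791). ACACA and ACLY passed in limma only without shIMPA1 library 1, at log2 fold changes of -0.42 and -0.37.

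SCD had the largest rise of the 10 in shIMPA1. It was at 13254 and 15569 normalized reads in shLuc and at 42672 and 31922 in shIMPA1. The lower shIMPA1 library was still above the higher shLuc library by a wide margin, and the mean was 2.57-fold higher (log2 fold change 1.36, SE 0.17, limma adjusted p = 0.000234). ELOVL6, which supplies stearate to SCD, went the other way. It was at 2567 and 2805 in shLuc and at 1612 and 1286 in shIMPA1, a 1.86-fold lower level (log2 fold change -0.90, SE 0.13, limma adjusted p = 0.000715).

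Both front-end desaturases fell in shIMPA1. FADS1 was at 7112 and 7406 normalized reads in shLuc and at 4698 and 2428 with shIMPA1, a log2 fold change of -1.10 (SE 0.23, limma adjusted p = 0.00497). FADS2 was at 929.8 and 1056 in shLuc and at 604 and 337 with shIMPA1, a log2 fold change of -1.13 (SE 0.22, limma adjusted p = 0.00295). The 2 shIMPA1 libraries stood apart for both genes, with library 2 the lower. Over all genes tested, 934 differed more than 2-fold between the 2 shIMPA1 libraries, against 266 in shLuc and 398 in shIMPDH2. The log2 fold change of FADS1 was -0.63 without shIMPA1 library 2 and -1.58 without library 1, and that of FADS2 was -0.71 and -1.55. The FADS1 call was lost without shLuc library 1 (limma adjusted p = 0.0504) or shLuc library 2 (limma adjusted p = 0.0601), and the FADS2 call without shLuc library 2 (limma adjusted p = 0.0520). FADS1 and FADS2 lie on opposite strands of chromosome 11 and share 490 exon bases, 4.79% of the FADS1 and 4.44% of the FADS2 exons, where reads cannot be told apart unless strand was kept. On their own strands, FADS2 also shares 49 exon bases with FEN1, and FADS1 shares 80 with MIR1908. Strand would not separate reads there.

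The summed level of 12 proliferation genes, MKI67, CCNA2 and PCNA among them, also differed between the 2 shIMPA1 libraries, at 43595 and 23323 normalized reads. In shLuc it was 80085 and 82993, and in shIMPDH2 59727 and 61718. All 12 fell in shIMPA1, and 6 to 12 were called when 1 library was left out. In shIMPDH2 only MCM3 of the 12 was called, and the other 11 did not pass. The median log2 fold change of the 12 was -1.41 in shIMPA1 and -0.31 in shIMPDH2. MCM3 was at 3936 and 4167 normalized reads there, against 12998 and 13375 in shLuc (log2 fold change -1.70). Over all genes tested, 30.2% were called in shIMPA1 (16.2% lower) and 17% in shIMPDH2 (9.15% lower). The part of the 12 proliferation genes in the results for FADS1, FADS2 and the other enzymes was not tested. In RNA from bulk cells, fewer cells of a kind and less RNA per cell cannot be told apart.

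ACSL1, the acyl-CoA synthetase, rose beside SCD. It was at 1584 and 1771 normalized reads in shLuc and at 3853 and 3989.5 in shIMPA1. The groups were well separated, with a 2.34-fold higher mean (log2 fold change 1.23, SE 0.12, limma adjusted p = 4.07e-05).

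**Figure D2:**
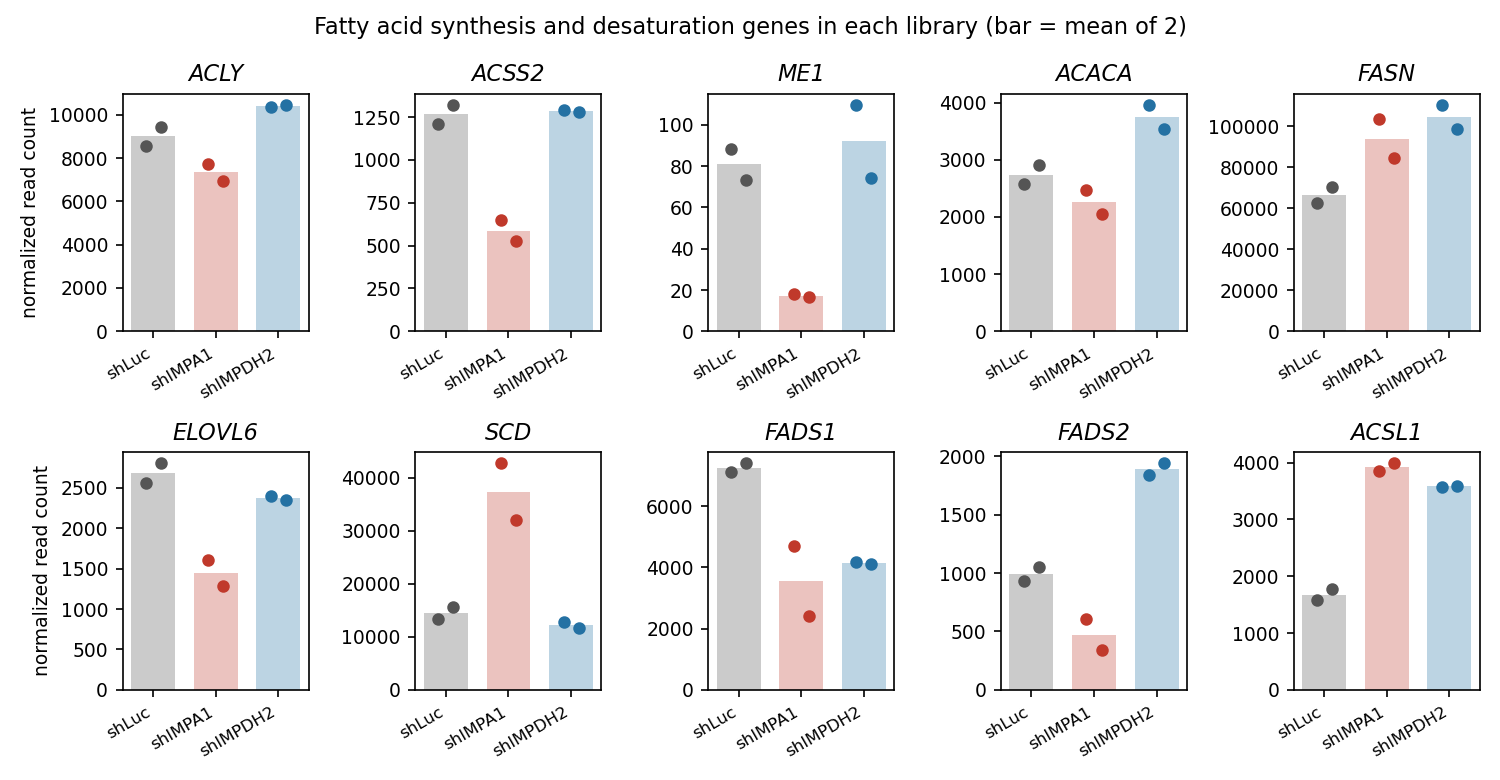
Normalized read counts of the 10 genes (vertical axes, each from 0), 1 panel per gene, with 1 point per library and bars at the mean of 2 libraries in shLuc, shIMPA1 and shIMPDH2. SCD is high in shIMPA1 alone at 42672 and 31922, FADS2 is high in shIMPDH2 at 1843 and 1941, and ACSL1 is high in both knockdowns.

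In shIMPDH2 against shLuc, FASN, ACACA, FADS2 and ACSL1 rose and FADS1 fell. The other 5 genes, SCD, ACSS2, ME1, ELOVL6 and ACLY, did not pass the test. That is 4 genes higher and 1 lower, where 7.86% of the genes tested were called higher, 9.15% lower and 17% in all. The median log2 fold change of the 10 was 0.19, and that of all genes tested -0.01. The libraries did not overlap for 8 of the 10 genes, as for 66.2% of the genes tested.

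Along the main path to palmitate, ACACA and FASN were both higher in shIMPDH2. ACACA was at 3960.1 and 3545 normalized reads in shIMPDH2 against 2581 and 2901 in shLuc, 1.37-fold higher (log2 fold change 0.45, SE 0.13, limma adjusted p = 0.0390). FASN was at 110412 and 98463 against 62449 and 70535, 1.57-fold higher (log2 fold change 0.65, SE 0.19, limma adjusted p = 0.0398). Neither gene overlapped between the groups. The suppliers of acetyl-CoA and NADPH did not pass. ACLY was at 10376 and 10456 in shIMPDH2, a log2 fold change of 0.21 (95% confidence interval -0.06 to 0.49). ACSS2 was at 1294 and 1278, inside the range of shLuc, a log2 fold change of 0.02 (95% confidence interval -0.27 to 0.32). ME1 was at 109.7 and 74.2, overlapping shLuc, with a log2 fold change of 0.16 (95% confidence interval -0.42 to 0.75).

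FADS2 rose and FADS1 fell in shIMPDH2. FADS2 was at 1843 and 1941 normalized reads in shIMPDH2 against 929.8 and 1056 in shLuc, 1.91-fold higher (log2 fold change 0.93, SE 0.22, limma adjusted p = 0.0142). FADS1 was at 4189 and 4103 against 7112 and 7406, 1.75-fold lower (log2 fold change -0.81, SE 0.23, limma adjusted p = 0.0358). The 2 desaturases thus moved in opposite directions, and for each the 2 libraries of a group lay close together. SCD was at 12844 and 11655 in shIMPDH2, slightly under shLuc, and did not pass (log2 fold change -0.23, 95% confidence interval -0.60 to 0.14). ELOVL6 was at 2397 and 2349, and did not pass either (log2 fold change -0.18, 95% confidence interval -0.47 to 0.11).

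ACSL1 was at 3578 and 3588 normalized reads in shIMPDH2, again clear of both shLuc libraries. The level was 2.14-fold higher (log2 fold change 1.10, SE 0.12, limma adjusted p = 0.000153). Its call held in all 15 alternative settings. The calls of FASN, ACACA, FADS1 and FADS2 in shIMPDH2 did not hold when any 1 of the 4 shLuc and shIMPDH2 libraries was left out, with limma adjusted p up to 0.228, 0.265, 0.208 and 0.151. The log2 fold changes without 1 of these libraries stayed between 0.56 and 0.74 for FASN, 0.37 and 0.54 for ACACA, -0.84 and -0.78 for FADS1, and 0.84 and 1.02 for FADS2.

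**Figure D3:**
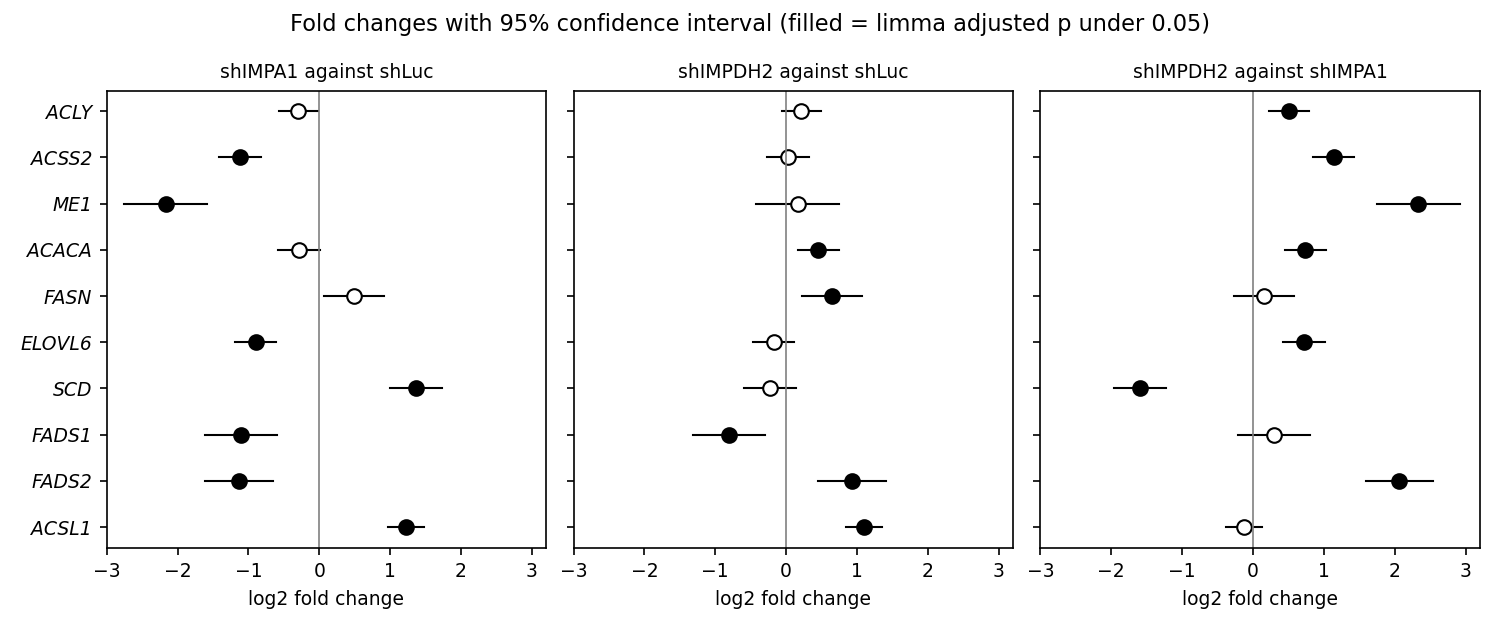
Log2 fold changes of the 10 genes (horizontal axes) with 95% confidence intervals in the 3 comparisons, filled where the limma adjusted p was under 0.05. In shIMPA1, SCD at 1.36 and ME1 at -2.17 are the extremes, and FADS2 lies at -1.13 in shIMPA1 and at 0.93 in shIMPDH2.

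The 2 knockdowns were also compared with each other, which tests directly whether their levels differ. In shIMPDH2 against shIMPA1, ME1, FADS2, ACSS2, ACACA, ELOVL6 and ACLY were higher and SCD was lower, while FASN, FADS1 and ACSL1 did not pass. That is 6 genes higher and 1 lower, where 13.5% of the genes tested were called higher, 12.6% lower and 26.1% in all. The median log2 fold change of the 10 was 0.61, and that of all genes tested -0.00. The libraries did not overlap for 8 of the 10 genes, as for 63.9% of the genes tested.

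SCD was 3.02-fold lower in shIMPDH2 than in shIMPA1, a log2 fold change of -1.59 (SE 0.17, limma adjusted p = 0.000103). FADS2 was 4.18-fold higher (log2 fold change 2.06, SE 0.22, limma adjusted p = 9.68e-05). ME1 was 5.03-fold higher (log2 fold change 2.33, SE 0.27, limma adjusted p = 0.000170). ACSS2 was 2.20-fold higher (log2 fold change 1.14, SE 0.13, limma adjusted p = 0.000202). ELOVL6, at a log2 fold change of 0.72 (limma adjusted p = 0.00305), ACACA at 0.74 (limma adjusted p = 0.00269) and ACLY at 0.51 (limma adjusted p = 0.0136) differed less. ACACA did not pass without shIMPDH2 library 1 (limma adjusted p = 0.0501), and ACLY did not pass without shIMPDH2 library 1 (limma adjusted p = 0.0969) or library 2 (limma adjusted p = 0.115). For the 3 that did not pass, the intervals of the difference were -0.26 to 0.58 for FASN, -0.21 to 0.80 for FADS1 and -0.38 to 0.12 for ACSL1. FADS1 passed without shIMPA1 library 1, at a log2 fold change of 0.77.

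Ratios of levels per exon length within each library set these genes against each other without the scaling between libraries. FADS2 to FADS1 was 0.121 and 0.132 in shLuc, 0.119 and 0.129 with shIMPA1, and 0.408 and 0.439 with shIMPDH2. Thus the shIMPA1 libraries fell inside the range of shLuc or just below it, although both genes fell there, and the shIMPDH2 ratio was 3.34-fold that of shLuc. SCD to FASN was 0.371 and 0.385 in shLuc, 0.719 and 0.661 with shIMPA1, and 0.203 and 0.207 with shIMPDH2. It was 1.83-fold that of shLuc in shIMPA1 and 0.542-fold in shIMPDH2, with no overlap between any of the groups. ACSS2 to ACLY was 0.137 and 0.136 in shLuc, 0.0814 and 0.0732 with shIMPA1, and 0.121 and 0.118 with shIMPDH2. ACACA to FASN was 0.0298 and 0.0296 in shLuc, 0.0171 and 0.0175 with shIMPA1, and 0.0258 and 0.0259 with shIMPDH2. With 2 libraries against 2, an exact two-sided permutation test cannot give a p below 0.333, which was the p of all these differences other than FADS2 to FADS1 in shIMPA1 against shLuc (p = 0.667).

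**Figure D4:**
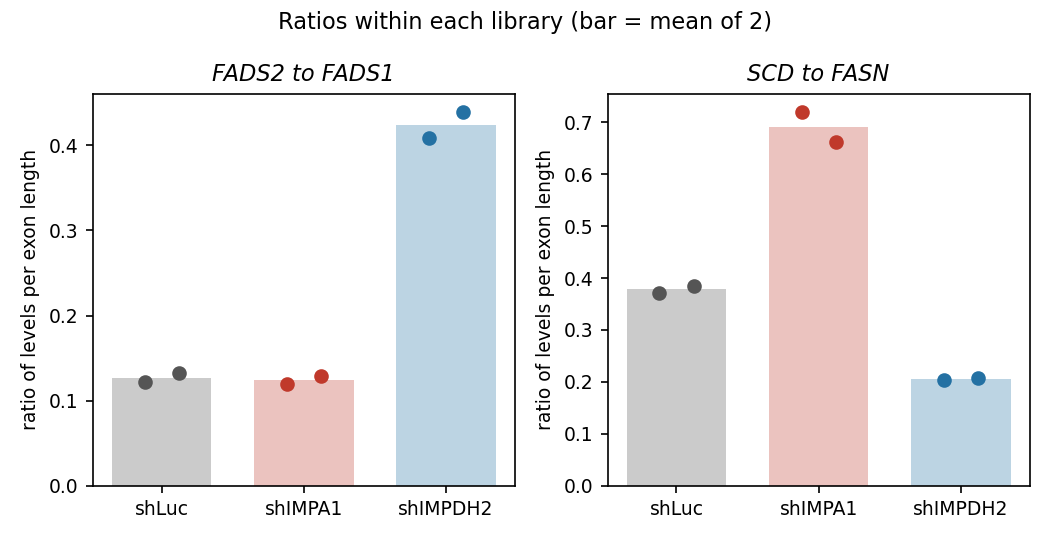
Ratios of levels per exon length within each library (vertical axes from 0), FADS2 to FADS1 on the left and SCD to FASN on the right, with 1 point per library and bars at the mean of 2. FADS2 to FADS1 stands out in shIMPDH2 at 0.408 and 0.439, and SCD to FASN is highest in shIMPA1 at 0.719 and 0.661.

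For the 3 enzymes called against shLuc in both knockdowns, the genes with the most similar pattern over the 6 libraries were listed, by the root mean square difference of log2 values centred on shLuc, among 12184 genes with a mean of at least 100 normalized reads. Both comparisons use the same shLuc libraries. For FADS1 the nearest were NTRK2 (0.0401), NEURL1B (0.0804) and METTL7A (0.0902). For ACSL1 they were ARHGEF38 (0.0572), PTPRN2 (0.0946) and OSBPL5 (0.103). FADS2 had no pattern as near, with MATN2 (0.173), LFNG (0.262) and ID2 (0.268) the closest.

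Other enzymes of the pathway were read from a list of 41 genes of fatty acid synthesis, elongation, desaturation and activation, of which 39 were tested. In shIMPA1, 5 rose and 13 fell, with a median log2 fold change of -0.03, where limma called 30.2% of all genes. In shIMPDH2, 4 rose and 6 fell, with a median of -0.02, where 17% were called. With 1 library at a time left out, limma called 5 to 20 of the 39 in shIMPA1 and 4 to 17 in shIMPDH2. The fatty acyl elongase ELOVL4 was at 604 and 702 normalized reads in shLuc, 329 and 255 with shIMPA1, and 317 and 345 with shIMPDH2, lower in both (log2 fold changes -1.17 and -0.98, limma adjusted p = 0.000484 and 0.00232). ACSL4, the synthetase that prefers arachidonate, was at 497 and 506 in shLuc, 446 and 405 with shIMPA1, and 147 and 155 with shIMPDH2. It fell in shIMPDH2 (log2 fold change -1.73, limma adjusted p = 3.13e-05) and did not pass in shIMPA1 (-0.24, limma adjusted p = 0.227), so that ACSL1 and ACSL4 moved in opposite directions in shIMPDH2. IDH1, another cytosolic source of NADPH, rose in both (log2 fold changes 0.71 and 0.86, limma adjusted p = 0.00218 and 0.00123). ACSS3, a mitochondrial relative of ACSS2, rose in both as well (0.54 and 0.97, limma adjusted p = 0.0145 and 0.00106).

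The regulators of these enzymes were read from 18 genes of lipogenic transcription factors and SREBP processing. In shIMPA1, 3 rose and 5 fell, and in shIMPDH2, 2 rose and 1 fell, where 30.2% and 17% of all genes tested were called. With 1 library at a time left out, limma called 2 to 11 of the 18 in shIMPA1 and 0 to 5 in shIMPDH2. SREBF1 was at 4580.4 and 5169 normalized reads in shLuc, 3115 and 2779.9 with shIMPA1, and 4441 and 4292 with shIMPDH2. With shIMPA1 it fell (log2 fold change -0.73, limma adjusted p = 0.00154) and did not pass in shIMPDH2 (-0.16, limma adjusted p = 0.414). INSIG1, which retains SREBP in the endoplasmic reticulum and is itself an SREBP target, was at 6559 and 6869 in shLuc, 2771 and 1767 with shIMPA1, and 5992 and 6107 with shIMPDH2. With shIMPA1 it fell (log2 fold change -1.60, limma adjusted p = 0.000118). SREBF2 did not pass in either (-0.26 and -0.13), and MLXIPL, which encodes the carbohydrate response factor ChREBP, fell in shIMPDH2 (-0.64, limma adjusted p = 0.0217) and did not pass in shIMPA1 (0.10). Of 8 genes tested for AMPK, the kinase that inhibits acetyl-CoA carboxylase, and its upstream kinases, 4 rose in shIMPA1 (1 without shLuc library 1 or without shLuc library 2) and 2 rose in shIMPDH2 (0 to 4 called by limma with 1 library left out), while the others did not pass. PRKAA2, a catalytic subunit, was at 894 and 936 in shLuc and 1604 and 1669 with shIMPA1 (log2 fold change 0.84, limma adjusted p = 0.000726).

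Sterol synthesis and uptake is the other branch of lipid synthesis under SREBP. Of 25 genes, 22 fell and 1 rose in shIMPA1 (median log2 fold change -1.07), where SCD and ACSL1 rose. In shIMPDH2, 4 fell and 2 rose (median -0.18), where limma called 17% of all genes. With 1 library at a time left out, limma called 18 to 23 of these genes in shIMPA1 and 0 to 12 in shIMPDH2. Of 25 genes of glycerolipid assembly and lipid droplets, 3 rose and 4 fell in shIMPA1, and 2 rose and 2 fell in shIMPDH2, near the 30.2% and 17% called over all genes tested. These counts ran from 1 to 10 in shIMPA1 and from 0 to 12 in shIMPDH2 with 1 library left out. The acyltransferase AGPAT4 was at 92.7 and 116 normalized reads in shLuc and 32.3 and 33.7 in shIMPDH2 (log2 fold change -1.62, limma adjusted p = 0.00206). Of 31 genes of fatty acid oxidation, 7 rose and 6 fell in shIMPA1, and 8 rose and 2 fell in shIMPDH2, against the same shares of all genes. With 1 library left out, 5 to 18 were called in shIMPA1 and 2 to 17 in shIMPDH2. ACOX2, the peroxisomal branched-chain oxidase, was at 18.9 and 14.9 in shLuc, 166 and 199 with shIMPA1, and 16.2 and 15.7 with shIMPDH2 (shIMPA1 log2 fold change 3.36, limma adjusted p = 1.40e-05). AMACR, a racemase that feeds branched-chain oxidation and a prostate cancer marker, rose in shIMPA1 (0.85, limma adjusted p = 0.00111) and fell in shIMPDH2 (-1.13, limma adjusted p = 0.000338).

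**Figure D5:**
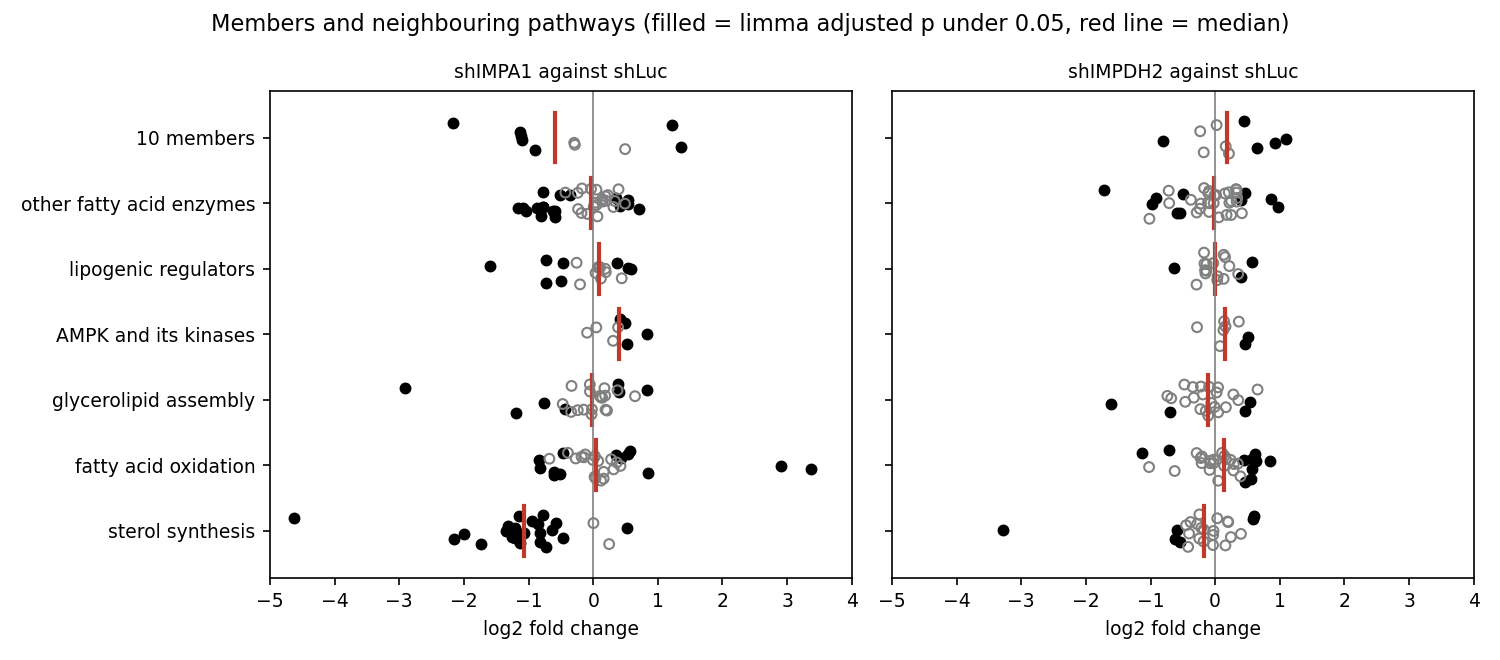
Log2 fold changes against shLuc (horizontal axes) for the 10 enzymes and 6 neighbouring gene lists, 1 point per gene, filled where the limma adjusted p was under 0.05, with a red line at each median. The sterol list lies to the left in shIMPA1, with a median of -1.07, while the 10 enzymes spread from -2.17 to 1.36.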

How the data were processed

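RNA-seq of 6 libraries was analysed. The submitters' processing notes name Trimmomatic 0.36, STAR 2.5.2b, Subread 1.5.2 and DESeq2, and the build GRCh38. Annotation release and strandedness of the kit: not given in the sources consulted. Judged by the file headers and by its values, the deposited signal is the authors' read count after scaling by a size factor for each library: 99.98% to 100% of genes gave whole reads within 0.05. The table's 3 other columns, the authors' own test of an unnamed comparison, were not used.

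Symbols for the Ensembl identifiers came from a table of gene names (16275) and GENCODE 29 (1475). Testing was limited to the 17742 genes that reached a value of 10 in 2 or more libraries (69 removed). A limma model (version 3.58.1, R 4.3.3) with a mean-variance trend and a mean for each group, but no replicate term, was fitted to log2(value + 1) of the 6 libraries, leaving 3 residual degrees of freedom, and p-values were adjusted by Benjamini-Hochberg over all genes tested. Fold changes are on this scale, which understates changes of genes with few reads. SE is limma's moderated standard error. The script was tested on simulated data with the same dispersion (relative spread between libraries) for all genes and groups. This checked the recovery of known fold changes, and not the calls in these data. The 15 alternatives included edgeR 4.0.16 and DESeq2 1.42.0 on the recovered reads. In shIMPA1, in shIMPDH2 and between the knockdowns, edgeR called 5480, 3010 and 4551 genes, and limma 5361, 3018 and 4627. DESeq2 called fewer, 4685, 2625 and 3978. Rescaling moved no library by more than 0.0113 (log2).

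Named genes were the 10 enzymes, the hairpin targets, SREBF1, SREBF2, MLXIPL and INSIG1, and called genes of each list with the smallest adjusted p (up to 4 per list, some given here), plus the 3 nearest patterns. The members and lists were chosen with earlier results of these data known. A marker result is not reported here. Replicate numbers were not treated as pairs.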

Additional observations from a re-analysis of the deposited data

How the results depend on the processing

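No call on the 10 enzymes changed direction under any of the 15 alternatives. Of the log2 fold changes that did not pass, 3 changed sign: ACSS2 in shIMPDH2 against shLuc was -0.04 without shLuc library 1, ME1 there was -0.12 without shIMPDH2 library 1, and FADS1 between the knockdowns was -0.18 without shIMPA1 library 2. In shIMPA1 against shLuc, SCD, ACSS2, ME1, ELOVL6 and ACSL1 were called in all 15, and in shIMPDH2 only ACSL1 was. Without the mean-variance trend, 1 of the 10 was called in shIMPDH2 against shLuc, and FADS1 in shIMPA1 did not pass (adjusted p = 0.0547). All genes called then numbered 3508 in shIMPA1, 1727 in shIMPDH2 and 2909 between the knockdowns. With only the 2 groups compared in the model, 6382 genes were called in shIMPDH2. Leaving out 1 library at a time gave 5 to 9 of the 10 in shIMPA1, 1 to 5 in shIMPDH2 and 5 to 8 between the knockdowns. The matching counts over all genes were 2147 to 7940, 773 to 6386 and 1430 to 7052, lowest without shLuc library 2 in both comparisons with shLuc and without shIMPDH2 library 2 between the knockdowns. The counts of the neighbouring lists, given with the lists, moved likewise, and AMPK genes called in shIMPA1 ranged from 1 to 6. The cause was not tested.

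With the replicate number as a replicate block, 7, 4 and 7 of the 10 enzymes were called, FASN in shIMPDH2 being lost (adjusted p = 0.0529), and 5298, 2939 and 4537 of all genes. Same-numbered libraries of different groups did not deviate together (correlations 0.04, -0.05 and 0.00 over 17742 genes), so the numbers were not taken as pairs. Depth limits ME1 most, at 19 to 98 reads per library.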
